A study of Mus musculus with 12 samples.

Results

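Embryoid bodies of a cathepsin L knockdown line, shCTSL, were compared with those of its control line, shSC, at Day 4 of differentiation. The comparison used 4 of the 12 RNA-seq libraries of the study, 2 of each line, chosen by the line and the day on their labels and fitted on their own. Of 24495 genes in the deposited count table, 14735 had enough reads in these 4 libraries to be tested, and 9760 did not. The study examined proteolytic cutting of histone H2A while mouse embryonic stem cells differentiate, and sampled both lines as stem cells (Day 0) and as embryoid bodies at Day 2 and Day 4. The stem cells were CCE-Nanog-GFP cells, which carry a GFP reporter of Nanog, and GFP-positive cells were sorted before use. The shCTSL cells, given the genotype CTSL KD, carried a lentiviral pLKO.1 shRNA against Ctsl, and the shSC cells, titled scr and given the genotype WT, carried a scrambled shRNA. Both lines were selected with puromycin. Embryoid bodies were made by withdrawing LIF and adding all-trans retinoic acid under constant rotation. The labels name 1 knockdown line and 1 control line, so the knockdown of Ctsl and any other difference between the 2 lines cannot be told apart.

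Cathepsin L is a cysteine protease of the lysosome that is also found in the nucleus, where it can cut the tails of histones. An embryoid body is an aggregate of stem cells in which genes of pluripotency are shut down while cells of several germ layers appear side by side. Retinoic acid binds nuclear receptors at enhancers, switches on Hox genes and its own metabolizing enzymes, and moves many stem cells away from pluripotency.

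The shSC libraries held 21885578 and 13434182 counts and the shCTSL libraries 16815622 and 18246185 counts. At least 1 read fell on 18881 and 18089 genes in shSC and on 19398 and 20160 genes in shCTSL. Levels are given as CPM, read counts scaled to library size with TMM factors, replicate 1 before replicate 2, and fold changes as log2 of shCTSL over shSC. Over the genes tested, the Spearman correlation of levels was 0.996 between the libraries of shSC and 0.996 between those of shCTSL, and 0.984 to 0.993 across the lines. Replicates differed by more than counting error alone: chi-square per degree of freedom was 7.51 in shSC and 8.70 in shCTSL. The median standard error of a log2 fold change was 0.459 below 1 CPM, 0.24 from 1 to 10 CPM, 0.112 from 10 to 100 CPM and 0.0926 at 100 CPM or more. With 2 libraries a line, the p-values measure the spread between these libraries only.

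Ctsl, the gene the shRNA targets (mm9, chromosome 13, minus strand, 64464522 to 64471614), had 10945 and 6100 counts in shSC and 4754 and 5136 counts in shCTSL. These counts are 516 and 456 CPM in shSC and 279 and 276 CPM in shCTSL, with neither shCTSL library reaching the lower shSC library. Ctsl was lower in shCTSL by a log2 fold change of −0.81 (SE 0.095, 95% interval −1.01 to −0.603, edgeR quasi-likelihood adjusted p = 0.000878), a fold of 1.75. It was called without each of the 4 libraries in turn, with log2 fold changes of −0.91 to −0.72. Of 23 listed cathepsins and cystatins, the family of the target and its inhibitors, 15 were tested and Ctsl was the only one called. The family's median log2 fold change was 0.32, against 0.011 over all genes tested, and 12 of the 15 were positive. The untested members Ctsg, Ctsq, Ctss, Ctsj, Ctsm, Ctsr, Cst6 and Cst8 had 0 to 10 counts in each library. Among 37 lysosomal enzymes and membrane proteins 0 were called by edgeR, and their median was 0.11. A list of 20 autophagy genes also had 0 called, with a median of 0.076, or 0.12 with offsets for exonic length.

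A gene was called when edgeR gave a Benjamini-Hochberg adjusted p below 0.05 and a change of at least 1.5-fold. By this rule 711 of 14735 genes (4.83%) were called, 361 higher (2.45%) and 350 lower (2.38%) in shCTSL. The median fold of the called genes was 1.72 among those higher and 1.71 among those lower, and 88 and 92 genes passed 2-fold. At least 4-fold separated 8 genes called higher and 13 called lower. All 361 genes called higher and 348 of the 350 called lower had libraries that did not overlap between the lines, as did 62.5% of all genes tested. Called genes were less abundant than the rest, with a median of 10.2 CPM for those higher and 14.6 CPM for those lower against 28.9 CPM over all genes tested. The number called moved widely with single libraries: it was 74 without shCTSL replicate 2, 500 without shSC replicate 1, 1029 without shCTSL replicate 1 and 1177 without shSC replicate 2. In such fits the lone sample of a line was assumed to vary like the others. DESeq2 called 436 genes, and a fit of all 12 libraries called 2.

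**Figure D1:**
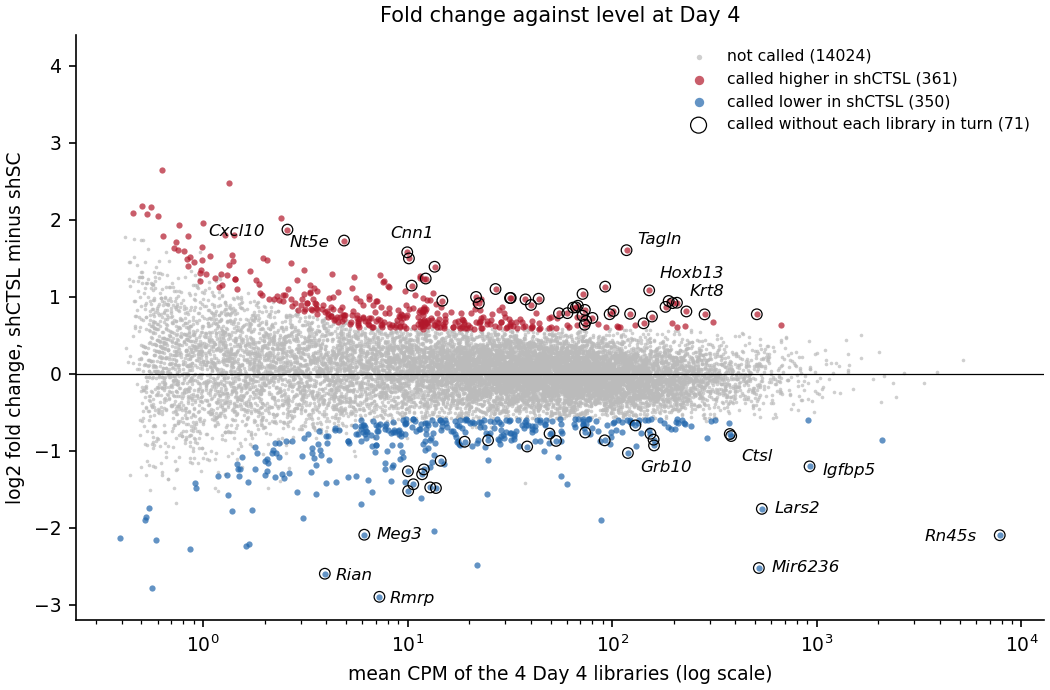
Each point is 1 of the 14735 genes tested at Day 4, with its mean level in CPM on a log axis against its log2 fold change of shCTSL over shSC. The 361 genes called higher and the 350 called lower are coloured, circles mark the 71 called without each library in turn, and Ctsl lies at −0.81.

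The calls that did not depend on any single library were 71 genes, 42 higher and 29 lower, and 62 of them were also called when offsets for exonic length were added. They included 6 of the 20 listed actin genes, Krt8, Krt18, Krt19, Anxa1, Anxa2, Anxa3, Stra6, Aldh1a2, Grb10, Plagl1 and Igfbp5. Clu, which encodes the secreted chaperone clusterin, was among them with 131 and 127 CPM in shSC and 234 and 263 CPM in shCTSL. The libraries did not overlap, and Clu rose by 0.94 (SE 0.094, edgeR adjusted p = 0.000553). Rnf128, a transmembrane ubiquitin ligase of endosomes, had 168 and 167 CPM in shSC and 284 and 303 CPM in shCTSL and rose by 0.81 (edgeR adjusted p = 0.000714). Lpl, the lipase that releases fatty acids from circulating lipoproteins, had 58.5 and 62.5 CPM in shSC and 97.2 and 102 CPM in shCTSL and rose by 0.72 (edgeR adjusted p = 0.00121). In both of these genes, too, each shCTSL library lay above each shSC library. Fat3, an atypical cadherin, fell from 16.9 and 12.9 CPM in shSC to 5.81 and 4.68 CPM in shCTSL, without overlap, a log2 fold change of −1.52 (edgeR adjusted p = 0.001). Rnf128, Lpl and Fat3 were chosen after their values were seen, as were all genes below that are on no list and not among the extremes.

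**Figure D2:**
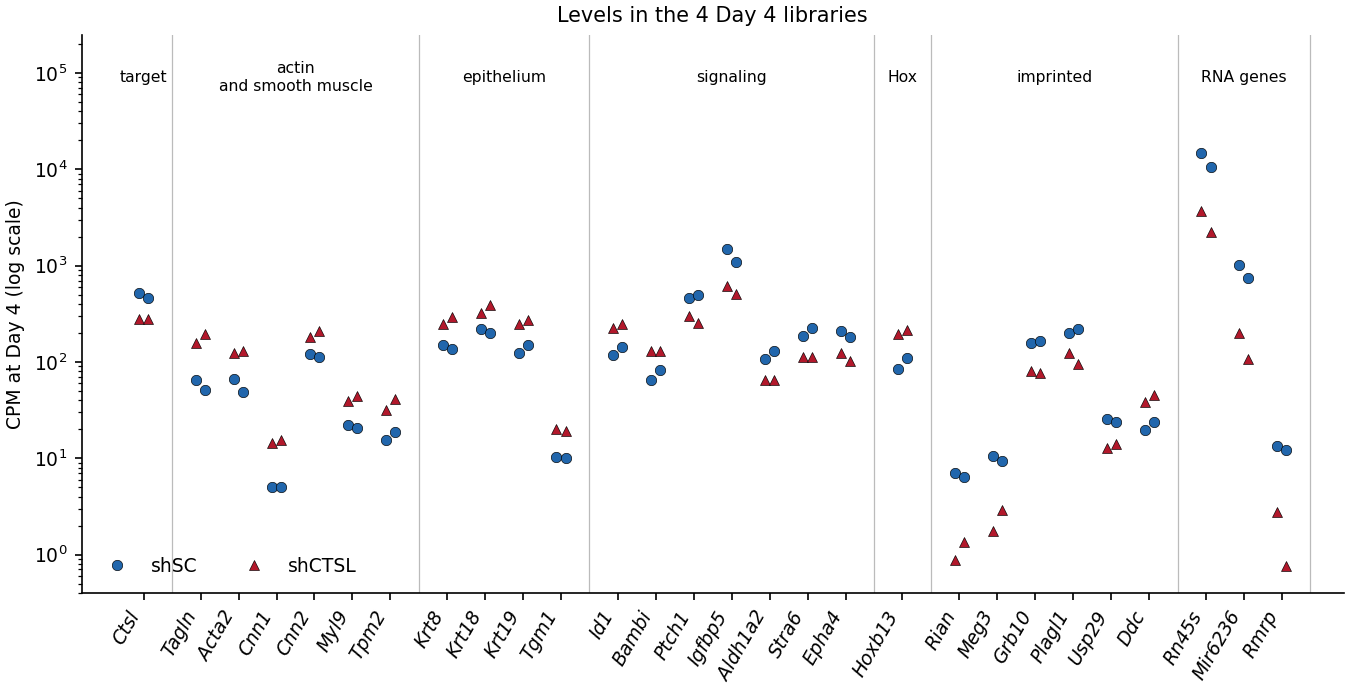
Levels in CPM on a log axis of named genes in each of the 4 Day 4 libraries, shSC and shCTSL, 1 point a library. In Tagln the shSC libraries sit at 65.2 and 50.8 CPM and the shCTSL libraries at 158 and 196 CPM.

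Of 20 smooth muscle and actin genes listed, all 20 were tested, 6 were called higher and 1 lower, and the median was 0.27. Tagln, which encodes the actin-binding protein transgelin, had 65.2 and 50.8 CPM in shSC and 158 and 196 CPM in shCTSL. Both shCTSL libraries lay above both shSC libraries, and Tagln rose by 1.60 (SE 0.131, edgeR adjusted p = 0.000351). Cnn1, which encodes the actin-binding calponin of differentiated smooth muscle, had 4.99 and 5.01 CPM in shSC and 14.3 and 15.6 CPM in shCTSL, again without overlap, and rose by 1.58 (SE 0.161, edgeR adjusted p = 0.000553). Acta2, smooth muscle actin itself, had 66.5 and 49 CPM in shSC and 124 and 130.1 CPM in shCTSL and a log2 fold change of 1.13 (SE 0.124, edgeR adjusted p = 0.000714). Cnn2, the calponin of non-muscle cells, had 120.5 and 114 CPM in shSC and 181 and 210.5 CPM in shCTSL and rose by 0.74 (edgeR adjusted p = 0.0015). Myl9, a regulatory light chain of myosin, had 22.1 and 20.4 CPM in shSC and 39.8 and 44.5 CPM in shCTSL and rose by 0.98 (edgeR adjusted p = 0.000866). Tpm2, a tropomyosin that lies along the actin filament, had 15.6 and 18.9 CPM in shSC and 31.6 and 41.7 CPM in shCTSL and rose by 1.10 (edgeR adjusted p = 0.00174). In each of these 6 genes every shCTSL library was above every shSC library, and each was called without any library and with length offsets.

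Mylk, the kinase that phosphorylates myosin light chains, went the other way with 15.3 and 13.2 CPM in shSC and 8.27 and 9.04 CPM in shCTSL, no overlap, and a log2 fold change of −0.72 (edgeR adjusted p = 0.0131). Its call was lost without shCTSL replicate 2 (log2 fold change −0.79, adjusted p = 0.111), and with length offsets it was −0.47 (edgeR adjusted p = 0.0664). The summed level of the list was 4797 and 4364 CPM in shSC and 4998 and 5051 CPM in shCTSL, with the filamin gene Flna the most abundant. Smooth muscle genes are known targets of serum response factor, which binds the CArG box. RefSeq promoters (GRCm38.p6) were matched by symbol to 17 of the 20 listed genes, and the CArG box was looked for on both strands, on which it reads alike, in the 250 bases before each start. It was present in 3 of the 17 (17.6%) and in 2 of the 5 matched members called higher, compared with 439 of 27025 genes in the promoter table (1.62%) and 160 of 11230 genes tested (1.42%). Among all called genes, 11 of 261 called higher (4.21%) and 4 of 255 called lower (1.57%) held it. The 3 matches of the list are shown on the plus strand, those of Cnn2 and Myl9, called higher, and that of Vcl, not called. Only exact matches were counted, with CC and GG around a run of A or T bases. A box with a mismatch, or farther from the start, was not looked for. Capitals mark the CArG box, which began 56 bases before the start in Cnn2 (chr10:79988534-79988563), 161 in Myl9 (chr2:156775293-156775322) and 227 in Vcl (chr14:20929161-20929190).
Cnn2: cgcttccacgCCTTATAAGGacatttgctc
Myl9: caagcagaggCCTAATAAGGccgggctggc
Vcl: cccactatgcCCTTATAAGGagcgccccgc

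Simple epithelial keratins and several junction genes were higher in shCTSL. Of 27 epithelial genes 24 were tested, 8 were called higher and 0 lower by edgeR, and the median was 0.37. The list summed to 2502 and 2272 CPM in shSC and to 2979 and 3036 CPM in shCTSL, and Dsp was its most abundant gene. Krt8, a keratin of simple epithelia, had 149 and 138 CPM in shSC and 250.5 and 293 CPM in shCTSL. The lines did not overlap, and Krt8 rose by 0.92 (SE 0.101, edgeR adjusted p = 0.000714). Krt18, its filament partner, had 218 and 201 CPM in shSC and 319 and 395 CPM in shCTSL and rose by 0.77 (SE 0.109, edgeR adjusted p = 0.00205). Krt19, a keratin of ductal and surface epithelia, had 125 and 149 CPM in shSC and 245 and 271 CPM in shCTSL and rose by 0.92 (SE 0.104, edgeR adjusted p = 0.000866). Tgm1, a transglutaminase that crosslinks the cell envelope of stratified epithelium, had 10.2 and 9.95 CPM in shSC and 20 and 19 CPM in shCTSL and rose by 0.95 (edgeR adjusted p = 0.00205). Every shCTSL library exceeded every shSC library in these genes, and all 4 were called without any single library. In a bulk library, more cells of a type and more RNA per cell cannot be told apart. Krt14 and Krt5, keratins of basal epidermal cells, had 1 to 9 counts a library and were not tested.

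The tight junction genes Cldn3 and Cldn4 and the desmosomal gene Perp were called higher with all libraries but not with each left out. Cldn4 had 195 and 162 CPM in shSC and 266 and 283 CPM in shCTSL without overlap and rose by 0.62 (edgeR adjusted p = 0.00526). Of the epithelial calls, those that remained were 7 of 8 without shCTSL replicate 1 (adjusted p of the rest 0.0887), 4 of 8 without shCTSL replicate 2 (adjusted p of the rest 0.0834 to 0.148), 7 of 8 without shSC replicate 1 (adjusted p of the rest 0.0515) and 5 of 8 without shSC replicate 2 (adjusted p of the rest 0.00328 to 0.0271, size of the log2 fold change from 0.47). With length offsets 4 members were called, namely Krt8, Krt19, Perp and Tgm1, and Krt18 was 0.56 (edgeR adjusted p = 0.00497), just under the fold required. Among 14 genes of the epithelial to mesenchymal transition 0 were called by edgeR, with a median of 0.041 (−0.032 with length offsets), and among 14 tested mesenchyme and fibroblast genes 0 were called, with a median of 0.059 (0.14 with length offsets). YAP targets, which report cell spreading and tension, had 7 positive and 7 negative members of 14 and a median of −0.017 (0.077 with length offsets). Of these 2 were called higher, Ctgf, a matricellular growth factor, at 0.69 and Cyr61, its close relative, at 0.60. Both calls were lost without shCTSL replicate 2 (adjusted p 0.173 to 0.231) and without shSC replicate 2, where Ctgf was 0.45 and Cyr61 was 0.34. Without shSC replicate 1, Cyr61 reached 0.92. Length offsets ended the calls of Cldn3 at 0.54 (adjusted p = 0.0476), Cldn4 at 0.45 (adjusted p = 0.0172) and Cyr61 at 0.46 (adjusted p = 0.0752).

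Anxa1, Anxa2 and Anxa3, chosen after their values were seen, encode annexins, which bind membrane phospholipids in a calcium-dependent way. Anxa3 had 30.7 and 28.3 CPM in shSC and 56.3 and 59.8 CPM in shCTSL, and both shCTSL libraries were the higher. Its log2 fold change was 0.97 (SE 0.103, edgeR adjusted p = 0.000714). Anxa1, which also acts as an anti-inflammatory mediator, had 6.41 and 6.66 CPM in shSC and 14 and 14.8 CPM in shCTSL and rose by 1.14 (edgeR adjusted p = 0.0016). Anxa2, a subunit of a complex that assembles plasmin at the cell surface, had 28.2 and 28 CPM in shSC and 49.2 and 55.1 CPM in shCTSL and rose by 0.89 (edgeR adjusted p = 0.000944). None of the 3 overlapped between the lines, and all 3 were called without each library. Nt5e, the surface enzyme that makes adenosine from AMP, had 1.93 and 2.69 CPM in shSC and 7.22 and 7.74 CPM in shCTSL, without overlap, and rose by 1.73 (SE 0.222, edgeR adjusted p = 0.00123). It too was called without each library. Lgals3, which encodes the galactoside-binding lectin galectin-3, had 1.04 and 0.823 CPM in shSC and 3.58 and 4.14 CPM in shCTSL. Its libraries did not overlap, and it rose by 2.02 (SE 0.283, edgeR adjusted p = 0.00194), a call lost without shCTSL replicate 2 (log2 fold change 1.91, adjusted p = 0.0585).

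Apart from Tagln, the steepest rises were in genes of low abundance. Mroh2a, a HEAT-repeat gene, had 0.235 and 0.0748 CPM in shSC and 0.704 and 1.51 CPM in shCTSL and rose by 2.65 (SE 0.625, edgeR adjusted p = 0.0188). Tuba3b, an alpha-tubulin known from testis, had 0.424 and 0.374 CPM in shSC and 1.7 and 2.85 CPM in shCTSL and rose by 2.48 (SE 0.417, edgeR adjusted p = 0.0053). Sqrdl, a mitochondrial sulfide-oxidizing enzyme, had 0.707 and 0.524 CPM in shSC and 2.41 and 2.04 CPM in shCTSL and rose by 1.80 (SE 0.345, edgeR adjusted p = 0.00886). These 3 did not overlap between the lines, and each lost its call without shCTSL replicate 2. Their log2 fold changes in that fit were 1.987 for Mroh2a, 2.055 for Tuba3b and 1.916 for Sqrdl. Vgf, Entpd2, Bean1 and Pcdh15 were also among the 12 highest, at log2 fold changes of 1.78, 1.78, 1.64 and 1.63. They encode a secreted neuropeptide precursor, an ectonucleotidase, a membrane protein that binds NEDD4 and a cadherin of hair cells. Their highest library held no more than 1.94 CPM, in Bean1. The call of Vgf was lost without shCTSL replicate 2 (log2 fold change 1.38, adjusted p = 0.27) and without shSC replicate 1 (log2 fold change 1.53, adjusted p = 0.156). That of Entpd2 was lost without shCTSL replicate 2 (log2 fold change 1.49, adjusted p = 0.283), without shSC replicate 1 (log2 fold change 2.12, adjusted p = 0.115) and without shSC replicate 2 (log2 fold change 1.58, adjusted p = 0.0862). For Bean1 this was so without shCTSL replicate 2 (log2 fold change 1.19, adjusted p = 0.318) and without shSC replicate 2 (log2 fold change 1.30, adjusted p = 0.0624), and for Pcdh15 without shCTSL replicate 2 (log2 fold change 1.22, adjusted p = 0.353) and without shSC replicate 1 (log2 fold change 1.26, adjusted p = 0.295). Length offsets also ended the calls of Entpd2 at 1.65 (adjusted p = 0.0544) and Pcdh15 at 1.63 (adjusted p = 0.056).

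The lists of neurons and axon guidance had negative medians. Of 45 axon guidance and Eph receptor genes 44 were tested, 0 were called higher by edgeR and 2 lower, and 32 of the 44 were negative with a median of −0.21. The called share was 4.5%, against 4.83% of all genes tested. With length offsets the median was −0.049 and only Epha4 was called. Epha4, a receptor tyrosine kinase that repels growing axons, had 209 and 180.1 CPM in shSC and 124 and 103 CPM in shCTSL. The shCTSL libraries both lay below the shSC libraries, and Epha4 fell by 0.78 on the log2 scale (SE 0.11, edgeR adjusted p = 0.00205), a call kept without each library. Sema5a, a semaphorin, had 5.84 and 7.48 CPM in shSC and 3.52 and 3.66 CPM in shCTSL without overlap and a log2 fold change of −0.87 (edgeR adjusted p = 0.0194), and its call was lost without shCTSL replicate 1 (log2 fold change −0.85, adjusted p = 0.057) and without shCTSL replicate 2 (log2 fold change −0.90, adjusted p = 0.163). The neuron list had 25 of 28 genes tested, 1 called higher, 4 called lower and a median of −0.20. With length offsets its median was −0.14, with 1 called higher and 3 lower. Ebf3, a factor of neuronal differentiation, had 4.66 and 4.49 CPM in shSC and 2.35 and 2.15 CPM in shCTSL without overlap and changed by −1.03 (edgeR adjusted p = 0.0146). Map2 and Nefl, cytoskeletal genes of neurites, were lower at −0.65 and −0.73, and the microtubule gene Mapt was higher at 1.03.

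The neuron calls that remained were 2 of 5 without shCTSL replicate 1 (adjusted p of the rest 0.0544 to 0.0887), 0 of 5 without shCTSL replicate 2 (adjusted p of the rest 0.144 to 0.264) and 3 of 5 without shSC replicate 2 (adjusted p of the rest 0.0225 to 0.123, size of the log2 fold change from 0.53). Map2 was not called with length offsets (−0.35, edgeR adjusted p = 0.163). The 19 tested neural progenitor genes had a median of −0.095 (−0.17 with length offsets). The progenitor list summed to 296 and 356 CPM in shSC and to 276 and 294.5 CPM in shCTSL, with Nes the most abundant. In the neural crest list 1 of 14 tested genes was called, the homeobox gene Msx2, at 0.83 (edgeR adjusted p = 0.0044), lost without shCTSL replicate 2 (log2 fold change 0.74, adjusted p = 0.0938).

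Several of the steepest falls were in genes where shSC replicate 1 stood far above shSC replicate 2. Ranbp3l, a nuclear export factor of SMAD signalling, had 61.7 and 11.9 CPM in shSC and 7.39 and 6.18 CPM in shCTSL. Both shCTSL libraries were lower, and the log2 fold change of −2.48 (SE 0.514, edgeR adjusted p = 0.0119) became −0.82 without shSC replicate 1. Its call was lost without shCTSL replicate 2 (log2 fold change −2.35, adjusted p = 0.173). Pax2, a factor of the midbrain boundary and the kidney, had 31.6 and 11.6 CPM in shSC and 6.34 and 4.41 CPM in shCTSL, and its log2 fold change of −2.05 (SE 0.355, edgeR adjusted p = 0.00612) became −1.12 without shSC replicate 1. The call of Pax2 was lost without shCTSL replicate 2 (log2 fold change −1.80, adjusted p = 0.134). Nptx1, a secreted neuronal pentraxin of synapses, had 198 and 78.5 CPM in shSC and 41.2 and 33.7 CPM in shCTSL, and its −1.90 (SE 0.297, edgeR adjusted p = 0.00376) became −1.07 without shSC replicate 1. The call of Nptx1 was lost without shCTSL replicate 2 (log2 fold change −1.76, adjusted p = 0.106). In all 3 the shCTSL libraries lay close together and below both shSC libraries.

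Nav3, which encodes a microtubule-associated protein of neurons, had 5.23 and 4.41 CPM in shSC and 1.82 and 0.86 CPM in shCTSL without overlap and fell by 1.87 on the log2 scale (edgeR adjusted p = 0.00475), lost without shCTSL replicate 2 (log2 fold change −1.42, adjusted p = 0.0961). Alox12b, a lipoxygenase of the epidermis, had 3.63 and 1.72 CPM in shSC and 0.528 and 0.645 CPM in shCTSL, and its −2.23 (edgeR adjusted p = 0.00793) was not called without shCTSL replicate 2 (log2 fold change −2.38, adjusted p = 0.11) and without shSC replicate 1 (log2 fold change −1.54, adjusted p = 0.0699). Pgc, which encodes the gastric protease precursor progastricsin, had 3.96 and 1.5 CPM in shSC and 0.528 and 0.699 CPM in shCTSL, and its −2.21 (edgeR adjusted p = 0.0119) was not called without shCTSL replicate 2 (log2 fold change −2.43, adjusted p = 0.137) and without shSC replicate 1 (log2 fold change −1.27, adjusted p = 0.174). Cdh8, Negr1 and Lrrc7, chosen after their values were seen, kept their calls without each library. Cdh8, a classical cadherin of the brain, had 16.8 and 21.2 CPM in shSC and 7.86 and 5.75 CPM in shCTSL and changed by −1.48 (edgeR adjusted p = 0.00104). Negr1, an adhesion molecule of neurons, had 16.2 and 17.4 CPM in shSC and 7.39 and 6.18 CPM in shCTSL and changed by −1.30 (edgeR adjusted p = 0.000944). Lrrc7, a scaffold of the postsynaptic density, had 15.2 and 13.2 CPM in shSC and 5.75 and 6.08 CPM in shCTSL and changed by −1.26 (edgeR adjusted p = 0.00121). No library of shCTSL reached a library of shSC in these genes. They were picked from the 603 called genes on no list and do not stand for neuronal genes as a set. In the neuron list 17 tested genes were negative and 8 positive.

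Retinoic acid genes were read at the level of uptake, synthesis, receptors and breakdown. Of 22 listed, 20 were tested, 0 were called higher by edgeR and 2 lower, and the median was −0.067 (−0.12 with length offsets). Stra6, the membrane receptor that takes up retinol from its carrier, had 186 and 225 CPM in shSC and 114 and 113 CPM in shCTSL. The lines did not overlap, and Stra6 changed by −0.85 (SE 0.103, edgeR adjusted p = 0.000945). Aldh1a2, the dehydrogenase that makes retinoic acid, had 108 and 129 CPM in shSC and 65.2 and 65.1 CPM in shCTSL, also without overlap, and changed by −0.86 (SE 0.102, edgeR adjusted p = 0.000936). Both calls held without each library and with length offsets, at −0.74 for Stra6 and −0.97 for Aldh1a2. Cyp26a1, which breaks retinoic acid down, was the most abundant gene of the list and was not called, and length offsets added a lower call of Cyp26c1 at −0.72 (adjusted p = 0.0166). The whole list summed to 3248 and 3468 CPM in shSC and 3170 and 3263 CPM in shCTSL.

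Of 39 Hox genes 35 were tested, 5 were called higher and 1 lower, and the median was 0.034 (0.007 with length offsets). Hoxb13, the last gene of the Hoxb cluster, had 85.2 and 109.8 CPM in shSC and 197 and 215 CPM in shCTSL. The shCTSL libraries lay above the shSC libraries, and Hoxb13 rose by 1.08 (SE 0.117, edgeR adjusted p = 0.000714), a call kept without each library. Hoxd13 had 4.1 and 5.76 CPM in shSC and 8.45 and 7.53 CPM in shCTSL and rose by 0.72 (edgeR adjusted p = 0.034). Hoxa13, Hoxd10 and Hoxd11 had no library above 1.76 CPM, and their log2 fold changes were 1.53, 2.07 and 1.60. Hoxa6 was lower, with 5.09 and 5.09 CPM in shSC and 3.52 and 2.31 CPM in shCTSL and −0.81 (edgeR adjusted p = 0.0394). The Hox calls that remained were 2 of 6 without shCTSL replicate 1 (adjusted p of the rest 0.0587 to 0.122), 1 of 6 without shCTSL replicate 2 (adjusted p of the rest 0.144 to 0.328), 1 of 6 without shSC replicate 1 (adjusted p of the rest 0.0656 to 0.247) and 4 of 6 without shSC replicate 2 (adjusted p of the rest 0.0748 to 0.0928), and Hoxd10 and Hoxd11 were never among them. With length offsets the call of Hoxd13 was lost, at 0.64 (edgeR adjusted p = 0.0624), and 1 was gained, Hoxb8 at −0.62 (adjusted p = 0.00219). Without shSC replicate 1, Hoxd13 was 0.46, and without shCTSL replicate 2, Hoxa6 was −0.53. The untested members Hoxa11, Hoxc11, Hoxc12 and Hoxd12 had 0 to 8 counts a library, and 0 of 9 Hox cofactors were called by edgeR, with a median of −0.18 (−0.014 with length offsets).

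BMP signalling passes through SMAD proteins to the Id genes, which block differentiation factors of the helix-loop-helix class. All 26 listed BMP genes were tested, 5 were called higher and 0 lower by edgeR, and the median was 0.086. Id1, a direct target of the pathway, had 117 and 142 CPM in shSC and 224 and 247 CPM in shCTSL. Neither line overlapped the other, and Id1 rose by 0.87 (SE 0.107, edgeR adjusted p = 0.00104). Bambi, a decoy receptor that dampens the pathway, had 64.2 and 83.3 CPM in shSC and 129.7 and 129 CPM in shCTSL without overlap and rose by 0.81 (SE 0.115, edgeR adjusted p = 0.00203). Smad6, an inhibitory SMAD, had 77.5 and 89.5 CPM in shSC and 125 and 130.5 CPM in shCTSL and rose by 0.61 (edgeR adjusted p = 0.00416). Id4 and Msx2 were called higher at 0.68 and 0.83. The BMP calls that remained were 4 of 5 without shCTSL replicate 1 (adjusted p of the rest 0.0657), 2 of 5 without shCTSL replicate 2 (adjusted p of the rest 0.0624 to 0.289), 4 of 5 without shSC replicate 1 (adjusted p of the rest 0.0172, size of the log2 fold change from 0.51) and 4 of 5 without shSC replicate 2 (adjusted p of the rest 0.119), and Id1 and Bambi were among them each time. With length offsets Id1, Bambi and Msx2 were called. Of 25 tested Nodal and TGF-beta genes 0 were called by edgeR, with a median of 0.12 (0.066 with length offsets).

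Wnt genes moved in both directions. Of 49 listed 44 were tested, 3 were called higher and 2 lower, and the median was −0.13 (−0.08 with length offsets). Wnt5a, a ligand of the branch that acts on cell polarity, had 41.8 and 34.2 CPM in shSC and 23.2 and 19.6 CPM in shCTSL without overlap and changed by −0.84 (SE 0.132, edgeR adjusted p = 0.00389). Dkk1, a secreted inhibitor of Wnt receptors, had 5.09 and 9.58 CPM in shSC and 17 and 16.4 CPM in shCTSL and rose by 1.23 (SE 0.223, edgeR adjusted p = 0.0072). Its shSC libraries were unequal, and without shSC replicate 1 it rose by 0.79. Rspo3, a secreted amplifier of Wnt signals, changed by −0.92 and by −0.45 without shSC replicate 1. Wnt5b and Wnt9a, further ligands, were higher at 0.59 and 0.63, and Wnt5b was 0.39 without shCTSL replicate 2 and 0.36 without shSC replicate 1. The Wnt calls that remained were 3 of 5 without shCTSL replicate 1 (adjusted p of the rest 0.0692 to 0.104), 0 of 5 without shCTSL replicate 2 (adjusted p of the rest 0.0938 to 0.332) and 2 of 5 without shSC replicate 1 (adjusted p of the rest 0.118 to 0.223), and length offsets ended the call of Wnt5b at 0.52 (adjusted p = 0.0605).

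Hedgehog genes leaned lower, with 0 of 14 called higher by edgeR, 2 called lower, 11 negative and a median of −0.31. Ptch1, the receptor and a target of the pathway, had 458 and 493 CPM in shSC and 301 and 252 CPM in shCTSL. The lines did not overlap, and Ptch1 fell by 0.78 on the log2 scale (SE 0.104, edgeR adjusted p = 0.00149), a call kept without each library. Hhip, a decoy that binds Hedgehog ligands, had 28.5 and 34.6 CPM in shSC and 20.1 and 16.2 CPM in shCTSL without overlap and changed by −0.79 (edgeR adjusted p = 0.0066), lost without shCTSL replicate 2 (log2 fold change −0.65, adjusted p = 0.112). In the Notch list 1 of 23 tested genes was called, the ligand gene Jag1, at −0.67 (edgeR adjusted p = 0.0352), lost without shCTSL replicate 2 (log2 fold change −0.44, adjusted p = 0.314) and without shSC replicate 1 (log2 fold change −0.37, adjusted p = 0.224). The Jag1 call was also lost with length offsets, at −0.55 (edgeR adjusted p = 0.0697). That 1 call was 4.35% of the Notch genes tested, against 4.83% of all genes tested. Among 25 tested FGF genes and 12 LIF and STAT3 genes 0 were called by edgeR, with medians of 0.056 (−0.13 with length offsets) and −0.067 (0.038 with length offsets). In the insulin-like growth factor axis 2 of 14 tested genes were called lower. Igfbp5, a secreted binding protein that holds these growth factors in the matrix, had 1482 and 1089 CPM in shSC and 610.5 and 508 CPM in shCTSL. No shCTSL library reached a shSC library, and Igfbp5 changed by −1.20 (SE 0.138, edgeR adjusted p = 0.000866), a call kept without each library. Irs2, an adaptor of the insulin receptor, changed by −0.90 (edgeR adjusted p = 0.0126), lost without shCTSL replicate 2 (log2 fold change −0.68, adjusted p = 0.176) and without shSC replicate 1 (log2 fold change −0.54, adjusted p = 0.00955).

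Of 15 endoderm transcription factors, Sox17 alone was called, with 20.7 and 15.9 CPM in shSC and 13.3 and 11 CPM in shCTSL and −0.60 (edgeR adjusted p = 0.0275), lost without shCTSL replicate 2 (log2 fold change −0.47, adjusted p = 0.253) and without shSC replicate 1 (log2 fold change −0.40, adjusted p = 0.196). Among 28 tested visceral endoderm genes, whose median was 0.19 (0.10 with length offsets), the iron carrier gene Trf and the uptake receptor gene Amn were called higher at 0.69 and 1.16. Trf was lost without shCTSL replicate 2 (log2 fold change 0.47, adjusted p = 0.253) and without shSC replicate 1 (log2 fold change 0.57, adjusted p = 0.0602), and Amn was lost without shCTSL replicate 1 (log2 fold change 1.04, adjusted p = 0.0983), without shCTSL replicate 2 (log2 fold change 1.27, adjusted p = 0.163) and without shSC replicate 1 (log2 fold change 0.84, adjusted p = 0.229). Parietal endoderm and basement membrane genes had 1 of 21 called (4.76%, against 4.83% of all genes tested). It was Dkk1 above, which lost its call without shCTSL replicate 2 (log2 fold change 1.25). Of 37 tested collagens 2 were called lower, Col23a1 at −0.63 and Col25a1 at −0.67, and the calls that remained were 0 of 2 without shCTSL replicate 2 (adjusted p of the rest 0.18 to 0.212) and 1 of 2 without shSC replicate 2 (adjusted p of the rest 0.00447, size of the log2 fold change from 0.53). The 2 collagens called were 5.41% of those tested, against 4.83% of all genes tested. With length offsets neither collagen was called, with Col23a1 at −0.53 (edgeR adjusted p = 0.0386) and Col25a1 at −0.45 (edgeR adjusted p = 0.0577). Amn was not called with these offsets either, at 0.98 (edgeR adjusted p = 0.0649). Among 11 laminin chains 0 were called by edgeR, with a median of −0.14 (0.12 with length offsets), and the 15 tested primitive streak genes also had 0, with a median of −0.006 (−0.029 with length offsets). With length offsets 1 streak gene was called lower, Meox1 at −0.62 (adjusted p = 0.0172).

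The heart and lateral mesoderm list had 27 of 29 genes tested, 4 called higher, 0 called lower by edgeR and a median of 0.31. Hand1, a helix-loop-helix factor of the heart tube and trophoblast, had 9.37 and 8.83 CPM in shSC and 14.4 and 13.4 CPM in shCTSL without overlap and rose by 0.61 (edgeR adjusted p = 0.02). Actc1, cardiac actin, had 0.565 and 0.898 CPM in shSC and 2.11 and 1.99 CPM in shCTSL without overlap and rose by 1.54 (edgeR adjusted p = 0.0164). The cardiac factor gene Nkx2-5 and the atrial light chain gene Myl4 rose by 0.74 and 1.29. The heart calls that remained were 2 of 4 without shCTSL replicate 1 (adjusted p of the rest 0.0641 to 0.0836), 0 of 4 without shCTSL replicate 2 (adjusted p of the rest 0.141 to 0.334), 2 of 4 without shSC replicate 1 (adjusted p of the rest 0.0518 to 0.136) and 1 of 4 without shSC replicate 2 (adjusted p of the rest 0.0255 to 0.112, size of the log2 fold change from 0.55). With length offsets Actc1 and Myl4 kept their calls, those gained were Tbx20 at 0.60 (adjusted p = 0.0364) and Foxf1 at −0.65 (adjusted p = 0.00564), and those lost were Hand1 at 0.47 (adjusted p = 0.0594) and Nkx2-5 at 0.54 (adjusted p = 0.12). Tnnt2 and Nppa, markers of working heart muscle, had 1 to 7 counts a library and were not tested. In the endothelial list 18 of 25 genes were negative and the median was −0.21. Erg, a factor of endothelial identity, was the only one called (4%, against 4.83% of all genes tested). Erg had 18.8 and 14.3 CPM in shSC and 10.2 and 8.55 CPM in shCTSL without overlap and −0.83 (edgeR adjusted p = 0.0106), lost without shCTSL replicate 2 (log2 fold change −0.71, adjusted p = 0.152). Kdr, the VEGF receptor and most abundant gene of the list, had 116 and 118 CPM in shSC and 112 and 90.1 CPM in shCTSL and was not called (−0.21, edgeR adjusted p = 0.185). Its log2 fold change was −0.377 to −0.066 with each library left out in turn.

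Of 19 blood genes 9 were tested and 0 called by edgeR, and the list summed to 390 and 435 CPM in shSC and 381 and 357 CPM in shCTSL, with Gata2 the most abundant. Of 13 macrophage genes 4 were tested and 0 called by edgeR, and the list summed to 13.9 and 11.2 CPM in shSC and 11.03 and 12.5 CPM in shCTSL, with Cd68 the most abundant and C1qa at 0 counts in all 4. Rpl26, Ndufs5 and Hmgcs1, genes that most cells use, also had 0 counts in all 4, so a count of 0 in this table does not show that a gene was silent. Trophoblast genes had 1 of 11 tested called higher, Hand1, and 1 lower, the syncytial factor Gcm1, at −1.30 (edgeR adjusted p = 0.0158). Their calls that remained were 0 of 2 without shCTSL replicate 1 (adjusted p of the rest 0.0538 to 0.0641), 0 of 2 without shCTSL replicate 2 (adjusted p of the rest 0.141 to 0.149), 1 of 2 without shSC replicate 1 (adjusted p of the rest 0.158) and 1 of 2 without shSC replicate 2 (adjusted p of the rest 0.0255, size of the log2 fold change from 0.55), and only Gcm1 was called with length offsets. In the germline list 1 of 21 tested genes was called, Tuba3b (4.76%, against 4.83% of all genes tested). Stra8, a retinoic acid target of germ cells, was the most abundant gene and was not called.

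Pluripotency genes differed little between the lines at Day 4. All 24 listed were tested, 0 were called by edgeR and the median was 0.059 (−0.033 with length offsets). Nanog, whose reporter was used to sort the cells, had 52.8 and 51.2 CPM in shSC and 49.4 and 52.4 CPM in shCTSL, overlapping, and a log2 fold change of −0.031 (edgeR adjusted p = 0.85). Pou5f1, which encodes Oct4, had 78.2 and 70 CPM in shSC and 74.5 and 102 CPM in shCTSL, overlapping, and 0.25 (edgeR adjusted p = 0.201). It was 0.449 without shCTSL replicate 1 and 0.006 without shCTSL replicate 2. Sox2 had 91.8 and 81.7 CPM in shSC and 56.5 and 64.9 CPM in shCTSL without overlap, and its −0.52 (SE 0.103, edgeR adjusted p = 0.0104) stayed below the fold required. With length offsets it was called at −0.61 (edgeR adjusted p = 0.00439). Markers of differentiation were read in every library too: Nes, an intermediate filament gene of neural precursors, had 64.4 and 57.7 CPM in shSC and 63.3 and 67.8 CPM in shCTSL, and Gata6, a factor of primitive endoderm, had 152 and 186 CPM in shSC and 204 and 191 CPM in shCTSL. Neither was called, at 0.099 and 0.23. With each library left out in turn, Nes was 0.006 to 0.179 and Gata6 was 0.083 to 0.367. In the control line the change from Day 0 to Day 2, in which 8644 of 14909 genes (58%) were called, was −2.05 for Nanog and 6.52 for Gata6 (edgeR adjusted p = 6.00e-21 and 3.83e-23). For Nes it was −0.10 and not called (edgeR adjusted p = 0.167).

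The formative epiblast list, genes of the stage between naive and primed pluripotency, had 13 of 14 tested, 0 called higher by edgeR, 2 called lower and a median of −0.19 (−0.11 with length offsets). Pou3f1, a POU factor of the epiblast and neural plate, had 7.35 and 5.61 CPM in shSC and 2.7 and 2.26 CPM in shCTSL. The libraries did not overlap, and it changed by −1.41 (SE 0.227, edgeR adjusted p = 0.00453), lost without shCTSL replicate 2 (log2 fold change −1.28, adjusted p = 0.101).

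Imprinted genes, which are expressed from 1 parental copy, included some of the firmest falls. Outside the Dlk1-Dio3 locus 34 of 36 were tested, 2 were called higher and 7 lower, and the median was −0.089. Grb10, an adaptor that restrains insulin receptor signalling, had 157 and 164 CPM in shSC and 80.3 and 76.8 CPM in shCTSL. The shCTSL libraries were both below the shSC libraries, and Grb10 changed by −1.03 (SE 0.09, edgeR adjusted p = 0.000365). Plagl1, a zinc finger factor that slows growth, had 201 and 219.7 CPM in shSC and 125 and 95.6 CPM in shCTSL without overlap and changed by −0.93 (SE 0.119, edgeR adjusted p = 0.00123). Ddc, the neighbour of Grb10 that encodes aromatic amino acid decarboxylase, had 19.6 and 23.6 CPM in shSC and 38.9 and 45.8 CPM in shCTSL without overlap and rose by 0.98 (SE 0.129, edgeR adjusted p = 0.00136). Peg3, a paternally expressed zinc finger gene, had 2932 and 2442 CPM in shSC and 1760 and 1198 CPM in shCTSL without overlap and changed by −0.86 (SE 0.154, edgeR adjusted p = 0.00689). Usp29 had 25.6 and 23.7 CPM in shSC and 12.8 and 13.9 CPM in shCTSL and Zim1 had 41.5 and 32.2 CPM in shSC and 23.9 and 15.4 CPM in shCTSL, and they changed by −0.88 and −0.92. Peg3, Usp29 and Zim1 lie next to each other, and how reads were shared between them is uncertain. Mest and Impact were lower at −0.59 and −0.61, and Phlda2 was higher at 0.64.

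The calls of these imprinted genes that remained were 4 of 9 without shCTSL replicate 2 (adjusted p of the rest 0.0726 to 0.278) and 7 of 9 without shSC replicate 1 (adjusted p of the rest 0.00455 to 0.00814, size of the log2 fold change from 0.52). Grb10, Plagl1, Ddc and Usp29 were called without each library and with length offsets, which ended the calls of Mest at −0.58 (adjusted p = 0.00415) and Phlda2 at 0.37 (adjusted p = 0.138). At the Dlk1-Dio3 locus all 8 genes were tested, 2 were called higher and 2 lower, and the median was −0.49. The maternally expressed noncoding transcripts Rian (7.11 and 6.43 CPM in shSC and 0.88 and 1.34 CPM in shCTSL) and Meg3 (10.7 and 9.28 CPM in shSC and 1.76 and 2.9 CPM in shCTSL) did not overlap between the lines, changed by −2.60 and −2.09, and were called without each library. The thyroid hormone deiodinase gene Dio3 rose by 0.83, and Dio3os, which overlaps it on the other strand, by 1.22. The locus calls that remained were 2 of 4 without shCTSL replicate 1 (adjusted p of the rest 0.0603 to 0.0788), 2 of 4 without shCTSL replicate 2 (adjusted p of the rest 0.181 to 0.213) and 2 of 4 without shSC replicate 1 (adjusted p of the rest 0.2 to 0.224). With length offsets Rian and Meg3 stayed called, and the calls lost were Dio3 at 0.69 (adjusted p = 0.0726) and Dio3os at 0.999 (adjusted p = 0.0593). Which strand was counted is not given in the sources at hand, so the shares of Dio3 and Dio3os are uncertain. Among 27 tested long noncoding RNAs, Hotairm1 at the Hoxa cluster was the 1 called higher, at 0.72 (edgeR adjusted p = 0.00644), lost without shCTSL replicate 2 (log2 fold change 0.59, adjusted p = 0.11). Beside Rian and Meg3, 1700020I14Rik was called lower at −0.63, lost without shCTSL replicate 2 (log2 fold change −0.39, adjusted p = 0.275) and without shSC replicate 1 (log2 fold change −0.40, adjusted p = 0.0923). Both calls beside Rian and Meg3 were lost with length offsets, where Hotairm1 was 0.47 (edgeR adjusted p = 0.0235).

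Rn45s, which carries the ribosomal RNA precursor, had 314023 and 142157 counts in shSC and 63294 and 41633 counts in shCTSL. That was 1.435% and 1.058% of all counts in shSC and 0.376% and 0.228% in shCTSL, without overlap, and Rn45s changed by −2.10 (SE 0.208, edgeR adjusted p = 0.000553). Mir6236, which the annotation lists as a microRNA gene, had 1024 and 752 CPM in shSC and 202 and 108 CPM in shCTSL without overlap and changed by −2.52 (SE 0.227, edgeR adjusted p = 0.000365). Lars2, the mitochondrial leucyl-tRNA synthetase gene, had 966 and 696 CPM in shSC and 311 and 183 CPM in shCTSL without overlap and changed by −1.75 (SE 0.204, edgeR adjusted p = 0.000866). Rmrp, the RNA of the RNase MRP enzyme, had 13.4 and 12.3 CPM in shSC and 2.76 and 0.753 CPM in shCTSL without overlap and changed by −2.90 (SE 0.331, edgeR adjusted p = 0.000866). All 4 were called without each library. Rpph1, the RNA of RNase P, had 8.38 and 6.36 CPM in shSC and 4.81 and 4.25 CPM in shCTSL and changed by −0.72 (edgeR adjusted p = 0.0333). At Day 2 the log2 fold changes were positive, at 2.21 for Rn45s, 2.21 for Mir6236, 2.10 for Lars2 and 2.25 for Rmrp, and none was called (edgeR adjusted p = 0.708 in each). The share of Rn45s at Day 2 was 0.17% and 0.726% in shSC and 3.43% and 0.553% in shCTSL. That of Mir6236 was 0.0084% and 0.0489% in shSC and 0.224% and 0.0319% in shCTSL, the same order of libraries. Whether reads of ribosomal RNA were counted in Mir6236, Lars2 or Rmrp was not tested, so the 4 are not shown to be separate results. The libraries were prepared from poly(A) RNA, and the part of ribosomal RNA in the other results was not tested.

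Interferon-response and antigen-presentation genes had 32 of 38 tested, 6 called higher, 0 called lower by edgeR and a median of 0.17. Cxcl10, a chemokine induced by interferons, had 1.04 and 1.2 CPM in shSC and 4.52 and 3.6 CPM in shCTSL. Its libraries did not overlap, and it rose by 1.87 (SE 0.278, edgeR adjusted p = 0.00283), a call kept without each library. Tap1, which carries peptides to class I molecules, had 6.17 and 7.71 CPM in shSC and 12.7 and 12.8 CPM in shCTSL without overlap and rose by 0.90 (edgeR adjusted p = 0.00787). Usp18, which removes the ubiquitin-like ISG15, had 4.57 and 5.99 CPM in shSC and 9.15 and 9.84 CPM in shCTSL without overlap and rose by 0.87 (edgeR adjusted p = 0.0132). The class I gene H2-D1, the immunoproteasome gene Psmb9 and the apoptosis gene Xaf1 rose by 0.68, 2.17 and 1.10. H2-D1 has near-identical relatives, so its reads are uncertain. The interferon calls that remained were 4 of 6 without shCTSL replicate 1 (adjusted p of the rest 0.0538 to 0.0716), 1 of 6 without shCTSL replicate 2 (adjusted p of the rest 0.104 to 0.339) and 2 of 6 without shSC replicate 1 (adjusted p of the rest 0.0579 to 0.337). Without shSC replicate 1, Psmb9 was 1.41 and Xaf1 was 0.63, and without shCTSL replicate 2, H2-D1 was 0.43. Length offsets ended the call of H2-D1 at 0.60 (adjusted p = 0.0585). Ifi203 and Mndal, interferon-inducible genes outside the list, were called lower at −1.43 (edgeR adjusted p = 0.000945) and −1.42 (edgeR adjusted p = 0.00824), Ifi203 without each library and Mndal not. Isg15, Mx1 and Mx2 had 1 to 9 counts a library and were not tested.

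Targets of p53, all 23 of them tested, had 5 called higher and 0 lower by edgeR, with a median of 0.26. Btg2, which slows the cell cycle and is also an immediate early gene, had 60.2 and 54 CPM in shSC and 90.5 and 93.6 CPM in shCTSL without overlap and rose by 0.69 (SE 0.095, edgeR adjusted p = 0.00187), a call kept without each library. Cdkn1a, the cyclin kinase inhibitor p21, had 87.5 and 85.4 CPM in shSC and 127 and 136 CPM in shCTSL without overlap and rose by 0.61 (SE 0.09, edgeR adjusted p = 0.0028). The death genes Pmaip1 and Fas and the junction gene Perp rose by 0.61, 1.24 and 0.79. The p53 target calls that remained were 1 of 5 without shCTSL replicate 2 (adjusted p of the rest 0.0435 to 0.309, size of the log2 fold change from 0.46), 4 of 5 without shSC replicate 1 (adjusted p of the rest 0.0699) and 1 of 5 without shSC replicate 2 (adjusted p of the rest 0.00175 to 0.0596, size of the log2 fold change from 0.53). With length offsets Btg2 and Perp were called, and the median was 0.23. Cdkn2b, which inhibits the G1 cyclin kinases, rose by 0.67 (edgeR adjusted p = 0.00612), lost without shCTSL replicate 2 (log2 fold change 0.57, adjusted p = 0.104) and with length offsets, at 0.46 (edgeR adjusted p = 0.0202). Of 29 genes of S phase and mitosis 0 were called by edgeR, 21 were negative and the median was −0.10 (−0.063 with length offsets). The immediate early list had 1 of 23 tested genes called, Btg2 (4.35%, against 4.83% of all genes tested). Its median was 0.26 (0.12 with length offsets).

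The oxidative phosphorylation, ribosomal protein and proteasome lists had positive medians, which were smaller with length offsets. All 76 tested nuclear subunits of oxidative phosphorylation were positive, and the median was 0.37. In 67 of them both shCTSL libraries lay above both shSC libraries, as in 4745 of the 14735 genes tested. The 5 called higher were 6.58% of the list, against 4.83% of all genes tested. The 5 were Ndufa2, Ndufb2, Ndufs6, Uqcr10 and Atp5k, at 0.64, 0.60, 0.59, 0.61 and 0.59. Those that remained were 0 of 5 without shCTSL replicate 2 (adjusted p of the rest 0.0961 to 0.181), 1 of 5 without shSC replicate 1 (adjusted p of the rest 0.0116 to 0.03, size of the log2 fold change from 0.49) and 4 of 5 without shSC replicate 2 (adjusted p of the rest 0.00369, size of the log2 fold change from 0.57). With length offsets the median was 0.17, and Ndufb2 and Ndufb7 were called. Cytosolic ribosomal proteins took 1.36% and 1.41% of counts in shSC and 1.61% and 1.91% in shCTSL, and 65 of 77 tested were positive with 5 called higher, 1 called lower and a median of 0.26. Rpl13 had 50 and 43.8 CPM in shSC and 90.5 and 102 CPM in shCTSL without overlap and rose by 1.04 (SE 0.105, edgeR adjusted p = 0.000553), and Rpl39 and Rps28 rose by 0.86 and 0.66, and all 3 were called without each library. Rplp1 and Rps10 rose by 0.63 and 0.59. Rps16 was lower at −0.76, and it was −0.42 without shCTSL replicate 1 and −1.24 without shCTSL replicate 2. The calls of this list that remained were 5 of 6 without shCTSL replicate 1 (adjusted p of the rest 0.17), 4 of 6 without shCTSL replicate 2 (adjusted p of the rest 0.0701 to 0.0995) and 4 of 6 without shSC replicate 1 (adjusted p of the rest 0.00789 to 0.0199, size of the log2 fold change from 0.51), and near-identical copies of ribosomal protein genes make the counts of single members uncertain.

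The median of the ribosomal proteins with length offsets was 0.08, with Rpl13, Rpl39 and Rps16 still called and the other calls lost, Rps28 at 0.46 (adjusted p = 0.00559), Rplp1 at 0.37 (adjusted p = 0.0172) and Rps10 at 0.45 (adjusted p = 0.0135). Of 31 proteasome subunits 29 were positive and 0 called by edgeR, with a median of 0.25, or 0.15 with length offsets. In the glycolysis list 1 of 26 tested genes was called higher, Pgk1, at 0.65, and 1 lower, Gapdh, at −0.93, both with many near-identical copies. Pgk1 was lost without shCTSL replicate 2 (log2 fold change 0.47, adjusted p = 0.181) and with length offsets, at 0.53 (edgeR adjusted p = 0.0274), and Gapdh was lost without shCTSL replicate 1 (log2 fold change −0.67, adjusted p = 0.0664) and without shCTSL replicate 2 (log2 fold change −1.25, adjusted p = 0.0653). Of 21 cholesterol genes tested 19 were negative, the median was −0.28 and 1 was called (4.76%, against 4.83% of all genes tested). With length offsets the median was −0.29 and 0 were called by edgeR. The call was Abca1, which exports cholesterol, at −0.60 (edgeR adjusted p = 0.0158), lost without shCTSL replicate 2 (log2 fold change −0.42, adjusted p = 0.18) and without shSC replicate 1 (log2 fold change −0.43, adjusted p = 0.0424) and with length offsets, at −0.36 (edgeR adjusted p = 0.0471). Genes of the unfolded protein response, 22 tested, and heat shock proteins, 11 tested, had 0 called by edgeR, with medians of 0.17 and 0.02, and length offsets added a call of Slc7a11 at 0.64 (adjusted p = 0.0343).

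Chromatin genes were counted because cathepsin L can act on histones. Among 19 genes of heterochromatin and DNA methylation, 17 were negative and the median was −0.19 (−0.083 with length offsets). Tet2, which oxidizes methylated cytosine, was the only one called (5.26%, against 4.83% of all genes tested). Tet2 had 139 and 118 CPM in shSC and 92.6 and 76.3 CPM in shCTSL without overlap and changed by −0.60 (edgeR adjusted p = 0.00844), lost without shCTSL replicate 2 (log2 fold change −0.47, adjusted p = 0.116) and without shSC replicate 1 (log2 fold change −0.48, adjusted p = 0.0178) and with length offsets, at −0.39 (edgeR adjusted p = 0.0215). Of 11 replacement histone variants 1 was called, H2afj, an H2A variant encoded outside the histone clusters. H2afj had 44 and 47.8 CPM in shSC and 73.3 and 92.7 CPM in shCTSL without overlap and rose by 0.86 (SE 0.117, edgeR adjusted p = 0.00178), kept without each library. Clustered histone genes, whose transcripts mostly lack a poly(A) tail and whose copies are near-identical, had 17 of 69 tested and 0 called by edgeR, with a median of −0.35 (−0.59 with length offsets). With length offsets 1 was called lower, Hist1h1e at −1.43 (adjusted p = 0.0431). By edgeR 0 of 25 PBAF and BAF subunits, 0 of 16 Tip60 subunits, 0 of 18 deacetylases and 0 of 29 Polycomb subunits were called, with medians of −0.094 (−0.008 with length offsets), −0.14 (−0.026 with length offsets), 0.14 and 0.026 (0.045 with length offsets). Of 49 tested zinc finger genes from Zfp900 to Zfp999, a family of close relatives whose reads are uncertain, Zfp951 and Zfp971 were called lower at −1.01 and −0.67. These 2 calls were 4.08% of the list, against 4.83% of all genes tested. Those that remained were 0 of 2 without shCTSL replicate 2 (adjusted p of the rest 0.065 to 0.161). With length offsets 4 were called lower, these 2 with Zfp935 at −0.64 (adjusted p = 0.0224) and Zfp982 at −0.86 (adjusted p = 0.047). Of 8 oncofetal and Hmga genes, Hmga1 was called lower at −1.23, lost without shCTSL replicate 2 (log2 fold change −1.03, adjusted p = 0.212) and without shSC replicate 1 (log2 fold change −1.25, adjusted p = 0.0567).

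The 61 lists held 1560 genes, of which 1355 were tested and 108 were called, 65 higher and 43 lower. The other 603 called genes were on no list. By chromosome, calls made up 3.2% of tested genes on chromosome 16 and 7.41% on chromosome 6, against 4.83% of all genes tested. Chromosome 11, with 1181 genes tested, held 50 called higher and 15 called lower, together 5.5% of them.

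**Figure D3:**
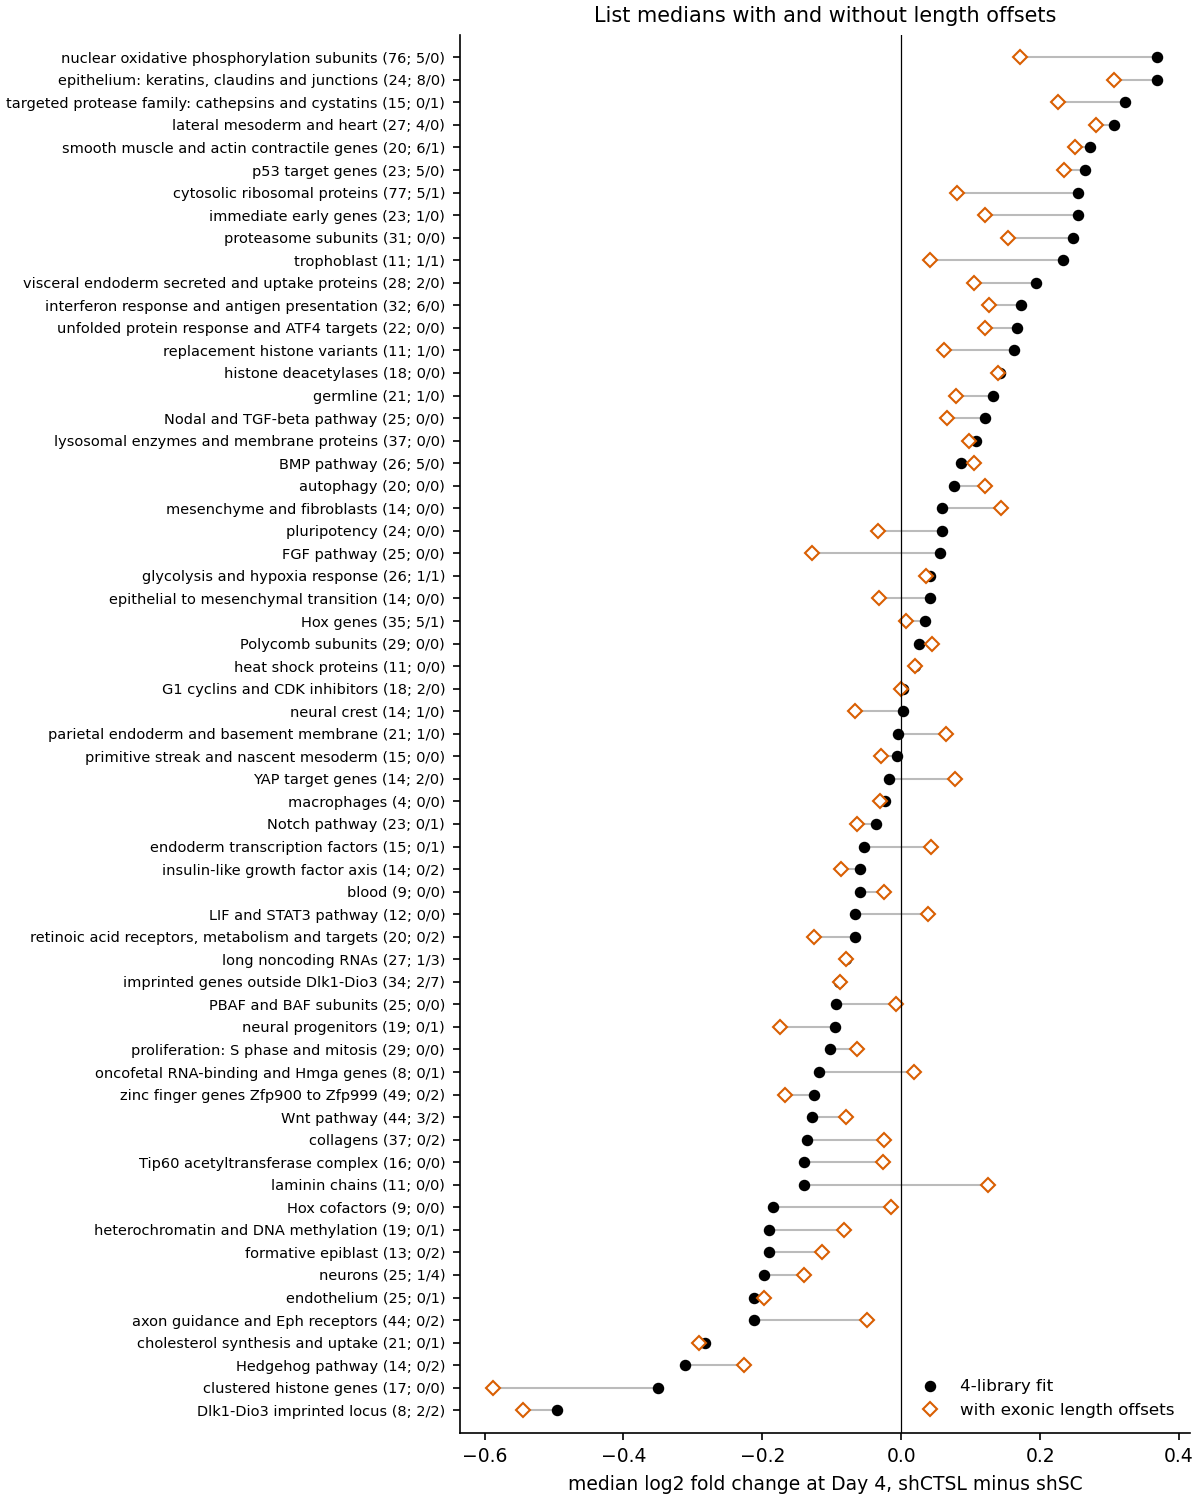
Median log2 fold change of shCTSL over shSC at Day 4 for gene lists, as fitted and with offsets for exonic length. Brackets hold the genes tested and those called higher and lower. Epithelial genes sit at 0.37 and 0.31, and axon guidance genes at −0.21 and −0.049.

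Fold changes were lower for longer transcripts. Over the 14251 tested genes with an annotated exonic length, 96.7% of those tested, the Spearman correlation of log2 fold change with length across genes was −0.436, and genes are not independent replicates. With these genes split into 10 bins of length, the shortest bin, 39 to 1451 bases, had a median log2 fold change of 0.28 with 110 called higher and 11 lower. In the longest bin, 8133 to 116828 bases, the median was −0.24 with 4 called higher and 107 lower. The median length was 1848 bases for genes called higher, 5848.5 for those called lower and 3656 for all tested, and the median GC content was 54.2%, 47.7% and 50.2%. Each shCTSL library set against each shSC library gave a negative correlation, from −0.469 to −0.279. Replicate 1 against replicate 2 within a line gave 0.161 in shSC and 0.386 in shCTSL. In 4 bins of expression, from the least to the most abundant genes, the correlation was −0.177, −0.407, −0.552 and −0.619. Without shCTSL replicate 2 it was −0.332 over all genes. With length offsets, which remove this trend within each library, 464 genes were called.

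**Figure D4:**
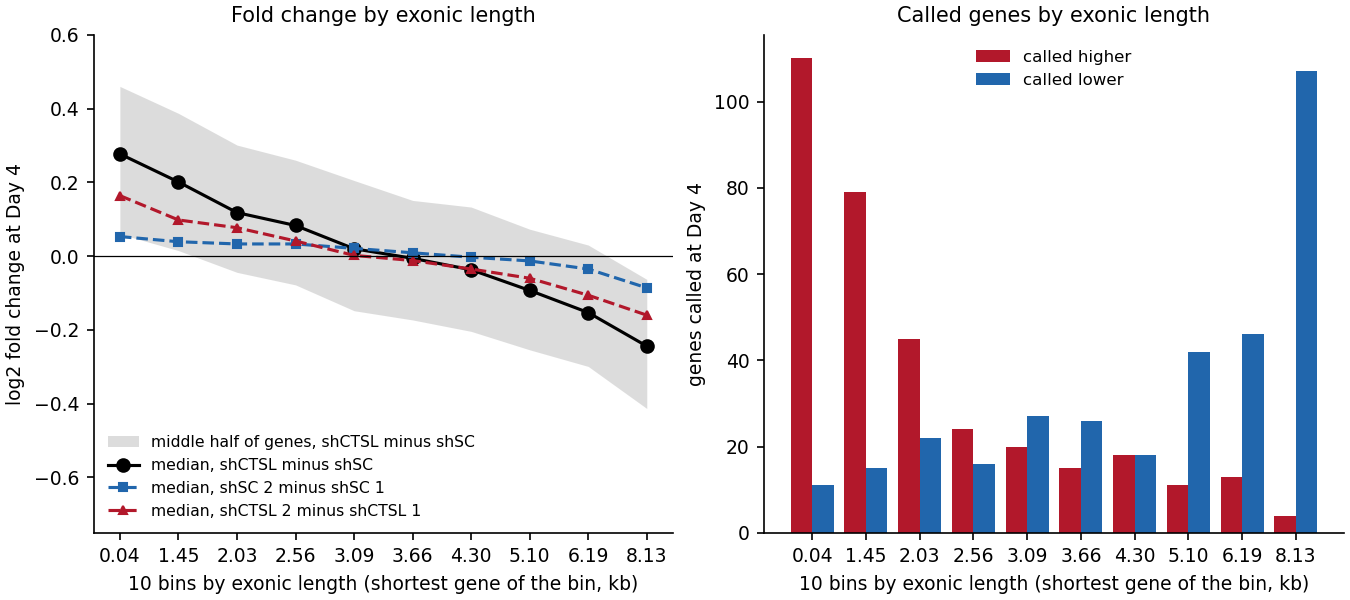
Log2 fold change of shCTSL over shSC at Day 4 in 10 bins of the 14251 tested genes by exonic length in kilobases on the left, with replicate 2 over replicate 1 within each line, and the genes called higher and lower in each bin on the right. The median runs from 0.28 in the shortest bin to −0.24 in the longest.

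At other days the same contrast of lines used other libraries. At Day 0, 269 of 13195 genes (2.04%) were called, 65 higher and 204 lower, and the length correlation was −0.198. Without shCTSL replicate 2 of Day 0 the count was 408. Of the genes called higher at Day 4, 285 were tested at Day 0, 171 were positive (60%) and 9 were called higher there. Of those called lower at Day 4, 255 were tested at Day 0, 191 were negative and 21 were called lower there. Among all genes tested at both days, 50.3% were positive at Day 0. Ctsl at Day 0 was −1.87 (edgeR adjusted p = 4.51e-10), Grb10 −0.71 (edgeR adjusted p = 6.47e-06) and Ptch1 −0.96 (edgeR adjusted p = 4.42e-06). Rian and Meg3 were also called lower at Day 0, at −1.67 (edgeR adjusted p = 0.000258) and −1.59 (edgeR adjusted p = 0.000428), and Nt5e and Anxa3 were called higher, at 0.91 (edgeR adjusted p = 0.0108) and 0.59 (edgeR adjusted p = 0.00587). Plagl1 was higher at Day 0, at 0.84 (edgeR adjusted p = 0.00906), where it was lower at Day 4.

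At Day 2, 0 of 15000 genes (0%) were called by edgeR, 494 had an unadjusted p below 0.05 and DESeq2 called 3. The edgeR count was 306 without shCTSL replicate 1, 5264 without shCTSL replicate 2 and 4 without shSC replicate 2 of that day. Of the genes called higher at Day 4, 344 were tested at Day 2 and 300 were positive (87.2%), against 51.6% of all genes tested at both days, and of those called lower 280 of 322 were negative. The length correlation at Day 2 was −0.483, and its part in this agreement in sign was not tested. The difference between the line effects at Day 4 and Day 0 was itself tested in the 8 libraries of those days. It was called in 149 of 15079 genes (0.988%), 113 positive and 36 negative. That count was 208 without shCTSL replicate 1 of Day 0, 24 without shCTSL replicate 2 of Day 0, 15 without shSC replicate 1 of Day 0 and 8 without shSC replicate 2 of Day 0. Leaving out a Day 4 library gave 498 without shCTSL replicate 1, 20 without shCTSL replicate 2, 52 without shSC replicate 1 and 325 without shSC replicate 2. The contractile genes Cnn1, Tagln, Acta2, Myl9 and Cnn2 were among the positive ones, and their Day 0 values were −0.54, 0.15, −0.26, −0.058 and −0.044.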

How the data were processed

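The authors' methods give poly(A) selection, directional libraries and single-end 75-base reads, aligned to mm9 with STAR 2.3.0e, filtered with SAMtools 0.1.19 and counted over RefSeq genes with featureCounts 1.6.2. The deposited table holds raw read counts per gene, and its 4 Day 4 columns sum to 13434182 to 21885578 counts. Genes passed edgeR's expression filter at a minimum count of 10. Counts were scaled by TMM and fitted by the quasi-likelihood model of edgeR 4.0.16 in R 4.3.3, with p-values adjusted by Benjamini and Hochberg over all genes tested. The pipeline was tested on simulated data. DESeq2 1.42.0, limma-voom 3.58.1, other filters and scalings, a replicate block, offsets for exonic length or GC (a spline with 5 degrees of freedom) and leaving out each library were the alternatives. Exonic lengths came from GENCODE M1 for 22015 genes. Figures used Python 3.11.15 with matplotlib 3.10.9. The 61 gene lists and their members were chosen with earlier results of these data known. Named genes were taken from Ctsl, the study's markers, list members, the 12 highest and 12 lowest called log2 fold changes with at least 1 CPM in the higher line, no overlap and no predicted loci, and the 6 smallest p in each direction. Any other gene was picked after its values were seen. Values of other libraries outside the comparisons above were not analysed here.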

Additional observations from a re-analysis of the deposited data

Results flagged for a closer look

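The results here stand out because the difference between the lines at Day 4 minus that at Day 0 passed edgeR's test across all genes. The test used the 8 libraries of those days, and only genes named above were taken. These include all list members called at Day 4, picked in libraries that also enter this difference. The length correlation was −0.436 at Day 4 and −0.198 at Day 0, and the difference was not fitted with length offsets. Positive differences on the log2 scale were 2.11 for Cnn1 (edgeR adjusted p = 0.00417), 1.82 for Lgals3 (adjusted p = 0.00699), 1.45 for Tagln (adjusted p = 0.00699), 1.38 for Acta2, 1.37 for Mapt and 1.20 for Trf. Further positive differences were 1.15 for H2afj, 1.08 for Cldn4, 1.06 for Ctsl (edgeR adjusted p = 0.00117), 1.04 for Myl9, 0.96 for Pgk1 and 0.92 for Bambi. The remaining positive ones were 0.89 for Phlda2, 0.81 for Smad6, 0.78 for Cnn2, 0.70 for Tgm1 and 0.67 for Uqcr10. Negative differences were −0.88 for Epha4, −1.39 for Pou3f1, −1.77 for Plagl1, −2.42 for Rn45s and −3.08 for Mir6236. Of these 22 genes, 17 were positive and 5 negative, and the largest of their adjusted p was 0.0408, in Phlda2. Only Lgals3 and Ctsl were called without each of the 8 libraries. Without 1 Day 0 library, 20 and 8 of the 22 were still called when shCTSL replicate 1 or 2 was left out, and 5 and 3 when shSC replicate 1 or 2 was. Without 1 Day 4 library the numbers were 22 and 7 for shCTSL and 13 and 22 for shSC.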

How the results depend on the processing

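At Day 4 the number of called genes, 711, became 436 with DESeq2, 2 with all 12 libraries fitted together and 464 with exonic length offsets, and the cause was not tested. By construction other thresholds changed it: 2192 without the fold, 180 at 2-fold, 56 at a log2 fold change of 1.5 and 1587 by unadjusted p and a log2 fold change of 0.5. It stayed within 1.5 times of 711 with RLE scaling (699), limma-voom (715), no filter (948), 1 CPM in 2 libraries (709), 8 libraries (829) and GC offsets (665). A block for the replicate number, a pairing that the labels do not state, gave 926 calls, and 682 together with length offsets. Leaving out 1 library gave 74 to 1177 calls, −0.91 to −0.72 for Ctsl and −0.459 to −0.332 for the length correlation. Ctsl was −0.83 with all 12 libraries, which missed the threshold (edgeR adjusted p = 0.0896), and its adjusted p ranged from 8.99e-23 to 0.0896 over the alternatives. The length correlation was −0.53 in genes with a mean of at least 100 counts. At Day 0 DESeq2 called 128 genes, and leaving out 1 library gave 221 to 408. At Day 2 DESeq2 called 3, and the range was 0 to 5264. For the difference between days the range was 8 to 498. Causes of these changes were not tested. Neither these results nor any of 133 genes, those set by the naming rule and all called list members, changed direction past the threshold. Of these 133 genes, 5 lost their call with RLE, 46 with DESeq2, 125 with all 12 libraries and 42 with length offsets. Without 1 library, 24 and 89 of them lost their call when shCTSL replicate 1 or 2 was left out, and 43 and 21 when shSC replicate 1 or 2 was. Of 61 list medians, 2 changed sign with RLE, those of the neural crest (0.003) and the G1 cyclins (0.003), and 11 with length offsets. Leaving out shCTSL replicate 1 or 2 changed the sign of 8 and 11 list medians, and leaving out shSC replicate 1 or 2 that of 13 and 8. Depth limits genes below 1 CPM, whose median standard error was 0.459.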
